A study of Mus musculus with 2 samples.

Results

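The core circadian clock genes described here are 10 genes taken by symbol: the activators Arntl, Clock and Npas2, the repressors Per1, Per2, Per3, Cry1 and Cry2, and the output factors Dbp and Tef. All 10 were found among the 43346 Ensembl genes of the deposited tables. RNA was measured in 2 livers of newborn mice of the inbred strain B6NCrl on postnatal day 0. Each library was made from 10 ng of RNA longer than 200 nt from the liver of 1 pup, and both pups had the same mother. No treatment is given in the labels, the sex was not collected, and the hour at which the livers were taken is not given in the sources used here. The livers form 1 group with 2 replicates, so the data allow a description of levels, of ratios between clock genes and of the difference between the littermates. Expected counts summed to 42124582 in pup 1 and to 41443673 in pup 2.

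The clock is a feedback loop of transcription. Arntl (also called Bmal1) pairs with Clock or its relative Npas2, and the pair binds E-box sequences and switches on the Per and Cry genes, whose proteins return to block it. A second loop runs through the nuclear receptors of the REV-ERB (Nr1d1, Nr1d2) and ROR families, which repress and activate Arntl. Dbp, Tef and Hlf are PAR bZIP factors that activate genes through D-box sequences, where Nfil3 represses. In adult liver these genes cycle daily, with Arntl and Npas2 high when Dbp, Nr1d1 and the Per genes are low. Per1 is also induced directly by glucocorticoids and by cAMP signalling. A single collection gives no phase, only the ratio between genes that peak at different hours in adults.

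The letters that the clock proteins read stand next to several members' annotated starts, and they are shown because transcripts from different starts of Per1 and of Tef are compared below. The RefSeq table used (GRCm38.p6) gave 14 starts for 9 of the members, all but Per2, and the 250 bases before each start were searched on both strands. The E-box CACGTG was found before 4 starts, of Per1, Cry1 and Tef (both starts), and before 6.02% of all 32851 starts in the table. The related E'-box CACGTT, which reads AACGTG on the other strand, was found before 2 starts, of Cry1 and Cry2 (3.85% of all starts). The D-box TTATGTAA was found only before Per3, where it occurred at 2 positions (0.819% of all starts), and its variant TTACGTAA before none (0.113%). The ROR element TAGGTCA (2.23%), the cAMP response element TGACGTCA (1.55%) and the glucocorticoid core ACANNNTGT (5.84%) were before none of the 14 starts in these windows. Each match is a description of letters in the reference and not a measured binding site. In the lines below the match is in capitals with 12 bases on each side, 5′ to 3′ on the strand of the gene.
Per1, chr11:69098771-69098800, + strand: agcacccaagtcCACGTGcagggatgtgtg
Cry1, chr10:85185097-85185126, - strand: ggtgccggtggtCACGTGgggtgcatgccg
Cry1, chr10:85185116-85185145, - strand: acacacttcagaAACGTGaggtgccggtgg
Cry2, chr2:92434218-92434247, - strand: acacatggtgggAACGTGagggggcggagc
Tef, start at 81802673, chr15:81802534-81802563, + strand: gtgctgtggctcCACGTGctgcagctggca
Tef, start at 81811414, chr15:81811264-81811293, + strand: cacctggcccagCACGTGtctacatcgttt
Per3, chr4:151044851-151044882, - strand: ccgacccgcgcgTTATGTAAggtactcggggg
Per3, chr4:151044804-151044835, - strand: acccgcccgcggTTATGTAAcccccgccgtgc

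The clock genes were transcribed at low to middling levels in both livers, and 9 of the 10 were detected at 1 TPM (a transcript level scaled for length and depth) or more in each. The exception was Npas2. Together the 10 genes summed to 54.7 TPM in pup 1 and to 53.7 in pup 2. Tef was highest and lay at rank 5142 among the 12332 genes detected in both livers. The liver identity of the tissue was checked on 6 hepatocyte genes, among them Alb, Apoa1 and Ttr, which all lay between 151 and 24077 TPM. They summed to 68264 TPM in pup 1 and 65372 in pup 2. RNA of blood cells was also abundant, with 6 erythroid markers at 63925 and 66778 TPM and 5 neutrophil markers at 7233 and 7467. The clock gene levels are thus those of a mixed tissue. In whole tissue, fewer cells of a type and less RNA per cell cannot be told apart.

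**Figure D1:**
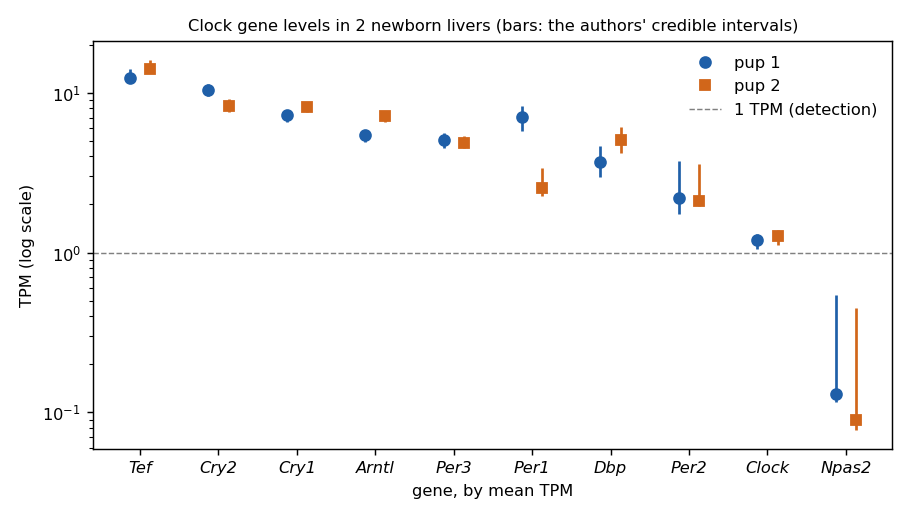
TPM of the 10 clock genes on a log axis, ordered by mean, with pup 1 as circles, pup 2 as squares and bars for the authors' credible intervals of TPM; the dashed line marks 1 TPM. Tef is highest in both livers, Npas2 lies below 1 TPM in both, and Per1 is the gene whose livers stand farthest apart.

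Among the activators, Arntl was clearly the most abundant. Arntl (ENSMUSG00000055116.7, chromosome 7, 113207465 to 113314126) stood at 5.48 TPM in pup 1 and at 7.14 in pup 2, a mean of 6.31 ± 1.17 TPM (SD, n = 2). Clock (chromosome 5, 76209868 to 76304792), which encodes its usual partner, stood at 1.19 and 1.27 TPM, or 1.23 ± 0.0566. Npas2 (chromosome 1, 39193731 to 39363236), the alternative partner, rested on 19 counts in pup 1 and 13 counts in pup 2. These counts correspond to 0.13 and 0.09 TPM, and the authors' credible intervals reached 0.54 and 0.449 TPM. The livers did not overlap between any of these 3 genes: Arntl was above Clock, and Clock above Npas2, in each pup.

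The Per genes, the repressors whose RNA is induced at E-boxes, lay between 2.1 and 7.05 TPM. Per1 (chromosome 11, 69095217 to 69109960) reached 7.05 TPM in pup 1 but 2.53 in pup 2. Per2 (chromosome 1, 91415982 to 91459324) stood at 2.19 and 2.1 TPM, or 2.15 ± 0.0636. Per3 (chromosome 4, 151003652 to 151044665) stood at 5.06 and 4.88 TPM, or 4.97 ± 0.127. Per2 and Per3 were thus close to level between the pups, whereas Per1 was the highest of the 3 in pup 1 and lay between the other two in pup 2.

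The cryptochrome genes, whose proteins carry out most of the repression of the Arntl and Clock pair, were among the most abundant members. Cry2 (chromosome 2, 92403646 to 92434043) stood at 10.4 TPM in pup 1 and at 8.3 in pup 2, or 9.37 ± 1.51. Cry1 (chromosome 10, 85131700 to 85185064) stood at 7.22 and 8.2 TPM, or 7.71 ± 0.693. Cry2 was higher than Cry1 in each liver, but in pup 2 the difference was only 1.01-fold, and it did not exceed the spread between the livers.

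The PAR bZIP genes lay far apart from each other. Tef (chromosome 15, 81802421 to 81826863) stood at 12.3 TPM in pup 1 and at 14.1 in pup 2, or 13.2 ± 1.28. Dbp (chromosome 7, 45705088 to 45710203), a direct E-box target that is among the most strongly cycling genes of adult liver, stood at 3.67 and 5.08 TPM, or 4.38 ± 0.997. Tef was 3.36-fold above Dbp in pup 1 and 2.78-fold in pup 2.

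Ordered by mean TPM, the members ran Tef, Cry2, Cry1, Arntl, Per3, Per1, Dbp, Per2, Clock and Npas2. Among neighbours in this order, the values of the 2 livers overlapped between Per3 and Per1 and between Per1 and Dbp. Per1 also overlapped Arntl, and Per3 overlapped Dbp. Of the 10 members, 5 overlap a gene on the opposite strand in GENCODE M21, and whether strand was used in counting is not stated. For 4 of these the partner had at most 15 counts in either liver or was not in the tables (Arntl, Npas2, Cry2 and Tef). Dbp overlaps Sphk2, which had 1498 and 1608 counts, so reads in the shared end of these genes cannot be told apart unless strand was used. On the same strand, Clock, Npas2 and Per3 overlap other genes. For Per3 this is Camta1, with 509 and 530 counts, and strand cannot separate their shared reads.

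Of the 23 other genes of the clock loops, 19 were detected in both livers. All 12 kinases, ligases and partner proteins were detected. Among these were Csnk1d, a kinase that marks Per proteins for destruction, at 26.3 and 26 TPM, and the Per-associated proteins Nono (54.3 and 52.1 TPM) and Sfpq (23.1 and 28.1 TPM). Timeless (16.1 and 13.1 TPM) and Tipin (77.5 and 73.1 TPM) were also high, and both are known chiefly for their work at DNA replication forks. Fbxw11, a ubiquitin ligase subunit, stood at 13.5 and 12.3 TPM.

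Of the 11 transcription factors of the loops, 7 were detected. Rora, the activator of Arntl, stood at 20.2 and 19.7 TPM, and its relative Rorb, at 0.01 TPM, had 1 count in each liver. Bhlhe40, a repressor at E-boxes, stood at 16.4 and 23.3 TPM, while its relative Bhlhe41 stood at 0.2 TPM in both. Ciart, another repressor of the activator pair, stood at 0.88 and 0.67 TPM and Arntl2, the relative of Arntl, at 0.5 and 0.1 TPM. For the nuclear receptor genes, Nr1d1 stood at 3.66 TPM in pup 1 and at 1.72 in pup 2 and Nr1d2 at 5.16 and 5.67 TPM. Nr1d1 overlaps Thra on the opposite strand.

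Ratios between clock genes show which relations held in both pups. In all, 22 pairs were compared as log2 ratios of TPM, and 12 exceeded the littermate spread, meaning the same sign in both and a mean over 3 SD from 0. An exact sign permutation over 2 livers cannot give a p below 0.5, so no p is printed. Within the activator the log2 ratio of Arntl to Clock was 2.20 in pup 1 and 2.49 in pup 2, with a mean of 2.35 ± 0.20 (SD, n = 2), or 5.09-fold. Clock exceeded Npas2 by 3.51 ± 0.44 on the log2 scale, and Arntl exceeded Npas2 by 5.85 ± 0.65, although Npas2 rested on few counts.

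Arntl lay above Dbp, Per2 and Nr1d1, which are opposite to it in the adult cycle, in both livers. The log2 ratio of Arntl to Dbp was 0.58 in pup 1 and 0.49 in pup 2, a mean of 0.53 ± 0.06, and that of Arntl to Per2 was 1.32 and 1.77, a mean of 1.54 ± 0.31. Both exceeded the spread. The ratio of Arntl to Nr1d1, the gene of its own repressor, was 0.58 in pup 1 and 2.05 in pup 2, positive in both but not beyond the spread. The ratio of Arntl to Per1 changed sign, from -0.36 in pup 1 to 1.5 in pup 2. The ratios of Arntl to Per3 (0.33 ± 0.31) and to Cry1 (-0.30 ± 0.14) did not exceed the spread. Of its partners, Clock lay below Per2 by -0.80 ± 0.11, beyond the spread, and Npas2 lay below Nr1d1 by -4.54 ± 0.40.

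Among paralogs, the ratio of Per2 to Per3 hardly differed between the pups, at -1.21 and -1.22 on the log2 scale. Over transcripts of 500 nt or more it was -1.34 ± 0.17, so the closeness of these values depended on 1 short Per2 transcript described below. Per1 over Per2 went from 1.69 to 0.27, and Per1 over Per3 changed sign from 0.48 to -0.95. Among genes of D-box factors, RNA of the repressor Nfil3 lay between that of the activators Tef and Dbp. Tef over Nfil3 was 0.58 ± 0.01 and Dbp over Nfil3 was -1.03 ± 0.18. Both exceeded the spread. Over transcripts of 500 nt or more Tef over Nfil3 was 0.42 ± 0.11, so here too the closeness of the pups depended on short transcripts. The third activator gene, Hlf (8.38 and 7.44 TPM), lay above Nfil3 (8.2 TPM) in pup 1 and below it (9.51 TPM) in pup 2. Dbp over Hlf was -0.87 ± 0.45, not beyond the spread. Rora exceeded Nr1d1 by 2.99 ± 0.74, beyond the spread, while Nr1d1 over Nr1d2 (-1.11 ± 0.87) was not. Every pair that contains Per1 failed the rule, and so did 2 of the 4 pairs with Nr1d1.

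**Figure D2:**
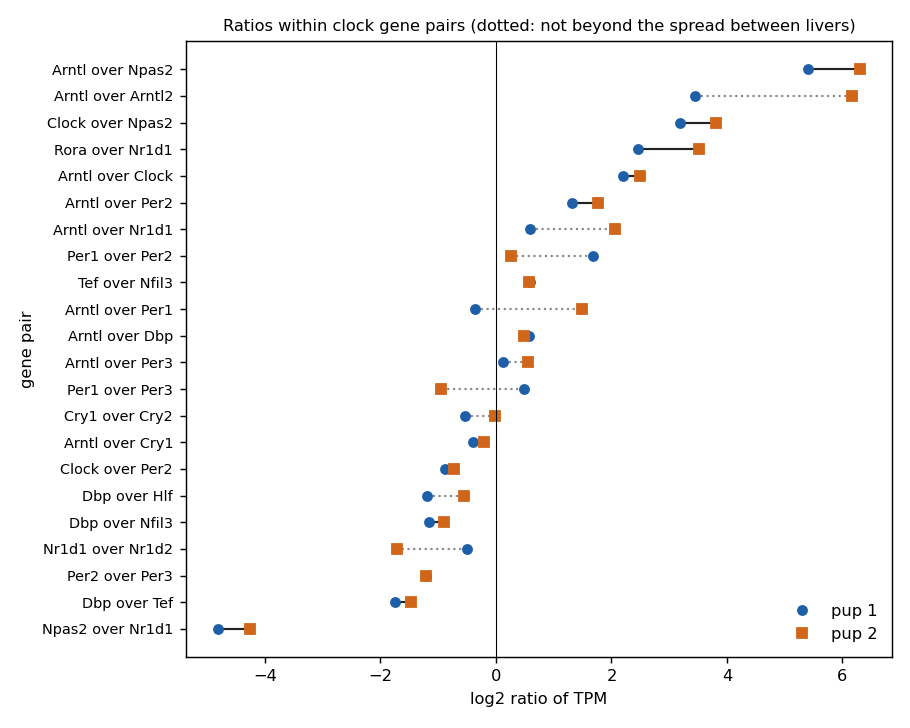
Log2 ratio of TPM within each of the 22 gene pairs, with pup 1 as circles and pup 2 as squares; solid lines mark ratios beyond the spread between livers and dotted lines those that are not. The points of Per2 over Per3 and of Tef over Nfil3 nearly coincide, and the longest dotted lines belong to pairs with Arntl2, Per1 or Nr1d1.

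Between the littermates, Per1 differed most among the clock genes. Per1 had 809 counts in pup 1 and 349 counts in pup 2. On log2(TPM + 1), where changes of weakly expressed genes appear smaller than they are, pup 2 lay 1.19 below pup 1, with credible intervals of 5.8 to 8.31 TPM and 2.26 to 3.4 TPM that did not overlap. In counts per depth Per1 was 2.28-fold higher in pup 1 (exact 95% binomial interval 2.01 to 2.59, counting error only). A gene was counted as apart at a difference of at least 2-fold on this scale, a mean of 1 TPM or more and intervals that did not overlap. This compares 2 animals with 1 library each and has no replicate check. Of the 9 members with a mean of 1 TPM or more, Per1 alone met it, against 80 of 12711 genes tested in either direction (0.629%) and 8 lower in pup 2 (0.0629%). The call was lost when only transcripts of 500 nt or more were summed (log2 ratio -0.89) and when a mean of 5 TPM or more was required. In size, the Per1 difference held rank 135 among the tested genes, so 1.05% of them differed more.

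**Figure D3:**
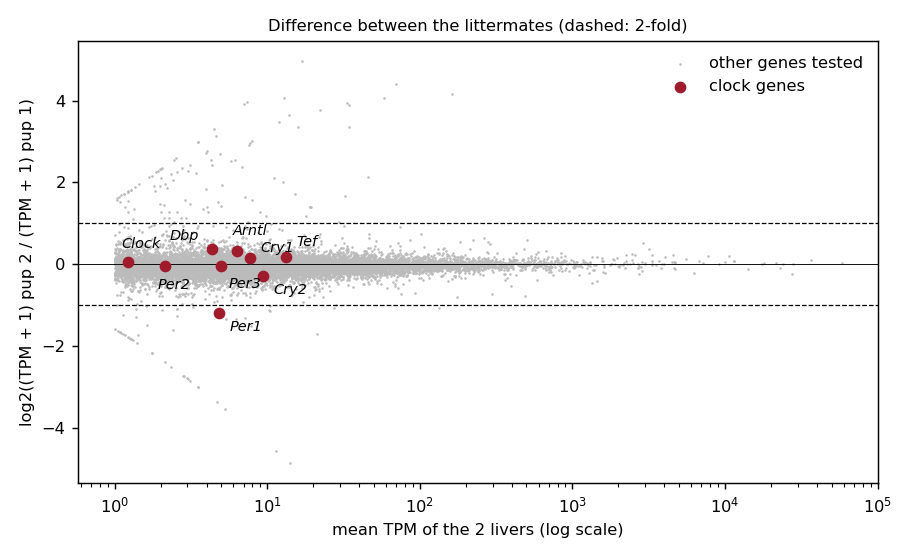
Log2 ratio of TPM + 1, pup 2 over pup 1, against mean TPM (log axis) for the 12711 genes tested in grey and the 9 clock genes among them in red; dashed lines mark 2-fold. Per1 at -1.19 is the only clock gene outside the dashed lines.

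The other members differed less and in both directions. Dbp had 148 and 231 counts, which is 1.59-fold higher in pup 2 in counts per depth (1.29 to 1.96), and its log2 ratio on TPM + 1 was 0.38, with credible intervals that overlapped. Arntl had 547 and 717 counts, 1.33-fold higher in pup 2 (1.19 to 1.49), with a log2 ratio of 0.33 and intervals that did not overlap. Cry2 went the other way, with a log2 ratio of -0.30 and intervals apart. Credible intervals were apart for 3 of the 9 members (Per1, Arntl and Cry2), beside 20.1% of all tested genes. The median log2 ratio was 0.05 over the 9 members and -0.05 over all tested genes.

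For Clock, Per3 and Cry1 the log2 ratios were 0.05, -0.04 and 0.16, and 75.2%, 79% and 35.5% of tested genes differed more. Tef had a log2 ratio of 0.18, and of 0.05 over transcripts of 500 nt or more. For Per2 and Per3 the direction depended on the scale. Per2 had 376 and 432 counts, 1.17-fold higher in pup 2 in counts per depth (1.01 to 1.34), but a log2 ratio of -0.04 on TPM + 1. Per3 gave -0.04 on TPM and 0.05 on CPM (counts scaled to library depth).

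None of the 19 other loop genes tested was 2-fold apart, beside 0.629% of all tested genes. Intervals did not overlap for 3 of the 19 (Nr1d1, Bhlhe40 and Sfpq), a share near the 20.1% of all tested genes. Nr1d1 had 337 and 161 counts, or 0.486 times the level per depth in pup 2 (0.4 to 0.588), and a log2 ratio of -0.78 on TPM + 1. With a pseudocount of 0.1 it was -1.05 and met the 2-fold rule. Bhlhe40 had 1672 and 2447 counts, 1.49-fold higher in pup 2 (1.4 to 1.58). The median log2 ratio of the 19 was -0.04.

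Several E-box targets and Per1 did not differ alike. In pup 2, Per1 and Nr1d1 were lower, Dbp had the higher count, and Per2, Per3 and Nr1d2 were within 1.17-fold of pup 1 in counts per depth. The 5 tested genes whose log2 ratio was nearest to that of Per1, with intervals apart, were Tsku (-1.13), G6pc (-1.08), Cyp7a1 (-1.08), Ankrd37 (-1.34) and Klf15 (-1.01). Likeness here rests on the ratio of 2 livers only. Just 8 tested genes were lower in pup 2 by the 2-fold rule, and Per1 and these 5 are all among them. This overlap follows largely from picking the 5 by their ratio and is not a separate result. Tsku, G6pc, Cyp7a1 and Klf15 return below as called genes of the chosen lists, so the 2 views are not separate results. G6pc releases glucose from hepatocytes, Cyp7a1 catalyses the limiting step in making bile acids, and Klf15 is a transcription factor of fasting metabolism.

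Genes under known clock or hormone control were set beside the members. Of 13 tested liver genes with known clock control, 2 were lower in pup 2 by the 2-fold rule, Tsku and Cyp7a1, and none higher. Of all 12711 tested genes, 8 were lower in pup 2 by this rule (0.0629%) and 72 higher. Intervals were apart for 5 of the 13 clock-controlled genes, all 5 lower in pup 2, beside 20.1% of all tested genes in either direction. The other 3 of the 5, named after their values were seen, were Pck1 (617 and 361 TPM), an enzyme of gluconeogenesis, Rgs16 (20.1 and 13.8 TPM), a regulator of G protein signalling, and Nampt (13.1 and 11.5 TPM), of the NAD salvage pathway. Of 13 glucocorticoid receptor targets, 3 were lower by the rule, beside the same 0.0629% of all tested genes. They were Lpin1 (12 and 3.57 TPM), G6pc (181 and 85.2 TPM) and Klf15 (38 and 18.4 TPM). Intervals were apart for 9 of these 13, all 9 lower in pup 2, again beside 20.1% of all tested genes, of which 1760 were lower and 797 higher in pup 2. That share is not matched for level: the 13 had median TPM of 24.8 and 18.5, all tested genes 9.09 and 8.72. Intervals were also apart for all 6 hepatocyte markers, which lay at higher levels, 5 of them lower in pup 2 and 1 higher. The median log2 ratio of the 13 glucocorticoid receptor targets was -0.42 against -0.05 over all tested genes. Fkbp5 and Sgk1, also in that list and named after their values were seen, had log2 ratios of -0.17 and 0.03. The intervals of Fkbp5 were apart, so it is among the 9, whereas those of Sgk1 overlapped. Of 8 tested immediate early and cAMP response genes none was 2-fold apart (0.629% of all tested genes were), and intervals were apart for 3 (20.1% of all), named after their values were seen: Junb, Egr1 and Ppargc1a, each lower in pup 2. These lists were chosen with earlier results of these data known. Whether hormone exposure had a part in the Per1 difference was not tested.

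RNA of other tissues moved with the same comparison. All 8 striated muscle markers were higher in pup 2, summing to 51.4 TPM in pup 1 against 778 in pup 2. All 8 pancreas markers were higher too, summing to 2.36 and 108 TPM, with Cel and Ins2 at 0 counts in pup 1. Both tissues also express clock genes, and the part of this RNA in the values of Dbp and Arntl, which were higher in pup 2, was not tested. With these markers and the globins taken out of the total, the log2 ratio of Per1 was -1.22 and it still met the 2-fold rule. This step only rescales the genes that remain. It does not remove Per1 RNA from muscle or pancreas, whose part in the Per1 values was not tested. All 5 neuron markers were below 1 TPM in both livers.

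Transcripts told more about Per1 and Per2 than the gene totals did. The tables hold 38 transcripts of the 10 members. Arntl, Clock and Cry1 have 1 each, and Npas2 had counts on 1 of its 3. The leading transcript, by its percent of the gene's TPM, was the same in both livers for all 10 members and protein-coding in GENCODE M21 for each. For Per1 it was Per1-201 (chromosome 11, 69098948 to 69109960), at 51.3% of TPM in pup 1 and 55.3% in pup 2. With the authors' posterior mean estimate the leading transcript of Per1 differed between the livers, being Per1-201 at 33.1% in pup 1 and Per1-202 at 28.4% in pup 2. The assignment of Per1 reads to transcripts was therefore uncertain.

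A short transcript weighed heavily in the TPM of Per1. Per1-204 (chromosome 11, 69100152 to 69101048) is 496 nt long and starts inside the gene, at the other start that RefSeq lists. It held 3.11% of the Per1 counts in pup 1 but 25.2% of the Per1 TPM, because 25.1 counts on so short a transcript make 1.78 TPM. In pup 2 it had 2.11 counts and 5.85% of TPM. By the posterior mean estimate its shares were 25.2% and 14.1%, a smaller difference. Per1-201 had 588 and 229 counts, or 3.61 and 1.4 TPM, a ratio of 2.58. Per1-202, whose start is upstream of both, had 169 and 105 counts, a TPM ratio of 1.63. Summed over transcripts of 500 nt or more, a sum chosen after the data were seen, Per1 stood at 5.27 and 2.38 TPM, 2.21-fold apart. Its log2 ratio on TPM + 1 was then -0.89, and Per1 no longer met the 2-fold rule. The direction was the same on each of these scales. The bases before the 2 starts are given here to show where the transcripts of Per1 begin, and the share from the later start rests on few counts. The first, of 249 bases, ends before the first exon of Per1-201, with its E-box in capitals; the second, of 250 bases, holds none of the motifs searched.
Per1-201, chr11:69098699-69098947, + strand: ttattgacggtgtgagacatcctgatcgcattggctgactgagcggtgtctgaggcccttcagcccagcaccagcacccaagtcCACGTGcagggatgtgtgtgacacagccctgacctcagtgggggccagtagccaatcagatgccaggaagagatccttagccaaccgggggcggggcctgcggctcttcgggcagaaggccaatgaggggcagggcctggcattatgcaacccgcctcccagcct
Per1-204, chr11:69099902-69100151, + strand: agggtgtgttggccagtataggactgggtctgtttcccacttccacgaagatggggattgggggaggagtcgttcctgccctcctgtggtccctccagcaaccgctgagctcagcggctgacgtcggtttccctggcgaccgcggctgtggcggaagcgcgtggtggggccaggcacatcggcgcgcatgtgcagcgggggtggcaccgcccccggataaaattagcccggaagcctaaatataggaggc

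**Figure D4:**
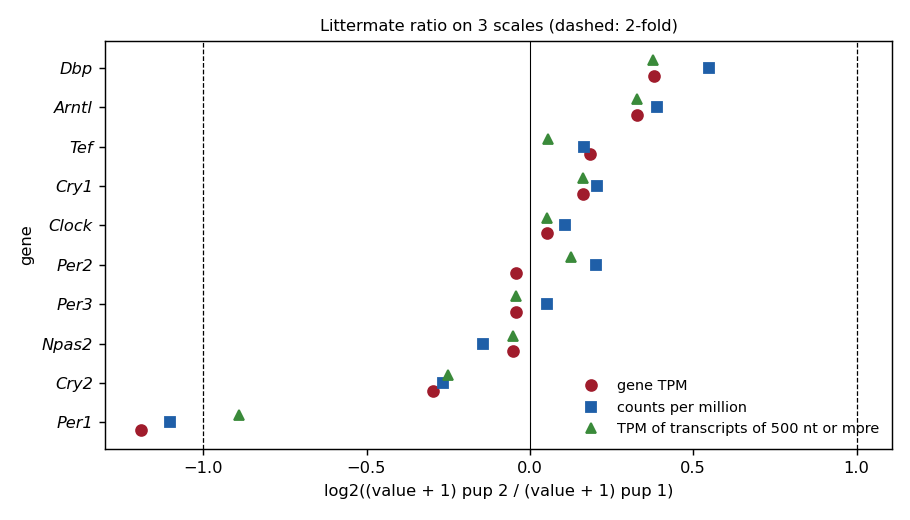
Log2 ratio of pup 2 over pup 1 for each clock gene on gene TPM (circles), CPM (squares) and TPM of transcripts of 500 nt or more (triangles), each value plus 1; dashed lines mark 2-fold. Per1 lies at -1.19, -1.10 and -0.89, and Per2 is below 0 only on gene TPM.

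The same held for Per2 on a smaller scale. Per2-202 is 231 nt long and noncoding, and 1.65 counts in pup 1 gave it 0.35 TPM, or 16% of the gene's TPM from 0.439% of its counts. It had 0 counts in pup 2, but by the posterior mean estimate its shares were 30.3% in pup 1 and 20.8% in pup 2. Per2-201, the full-length mRNA, had 1.84 TPM in pup 1 and 2.1 in pup 2, so without the short transcript Per2 was higher in pup 2.

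Tef and Per3 were divided among several transcripts. Tef-202 (chromosome 15, 81802421 to 81826863) held 39.3% of Tef TPM in pup 1 and 44.9% in pup 2, and Tef-201 (81811414 to 81826698) held 35.3% and 29%. Tef-201 begins at the RefSeq start 81811414, with the E-box shown above before it, whereas the other Tef E-box lies inside the first exon of Tef-202, since that transcript starts upstream of the RefSeq start. Tef-202 had 742 and 977 counts, and Tef-201 had 615 and 584, so Tef-202 was the higher in both. Tef-210, of 399 nt, had 3.32 and 18 counts, which made 0.31 and 1.68 TPM. Per3-201, the full-length mRNA, held 51.5% and 58% of Per3 TPM. A noncoding transcript at the 3′ end of the gene, Per3-204, held 35.4% and 38.2%.

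Cry2 differed least between the livers among the 6 members with reads on several transcripts, with Cry2-201 at 79.9% in pup 1 and 79.2% in pup 2. Dbp-201 held 42.1% and 52.6% of Dbp TPM, from 93 and 162 counts. The other 4 Dbp transcripts of the tables have no entry in GENCODE M21, and they held the rest.

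**Figure D5:**
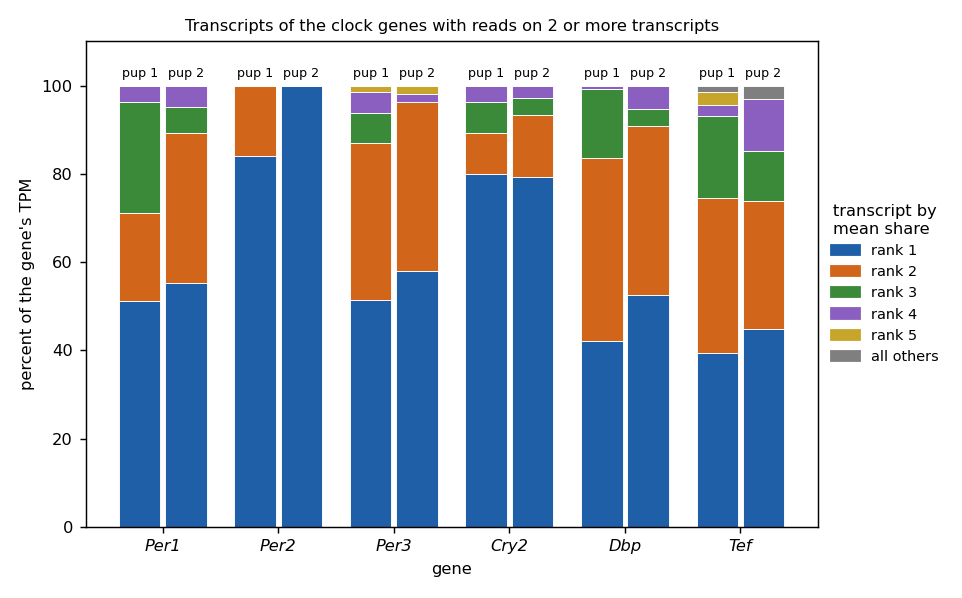
Percent of each gene's TPM by transcript in pup 1 (left bar) and pup 2 (right bar) for the 6 clock genes with reads on several transcripts, colours ranking transcripts by mean share. The Per1 transcript of rank 3 (Per1-204) shrinks from 25.2% to 5.85%, and the Cry2 bars are nearly alike.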

How the data were processed

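Livers of 2 pups were compared as 2 replicates of 1 group. The authors quantified genes and transcripts on mm10 and GENCODE M4, per notes in their deposit. The aligner is not given in the sources used here, nor is the counter. As deposited, expected counts are estimated reads per gene and transcript, which need not be whole (per the file headers and values). TPM and FPKM were deposited by the authors per effective length (length less 99 nt). The percent of a gene's TPM per transcript was deposited too. Credible bounds of TPM, a signal column in the deposited tables, have no stated level. They need not enclose the TPM printed beside them. For Alb in pup 1 the TPM was 14714.93 and the bounds were 14451.8 to 14511.8.

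Symbols matched 42462 of 43346 Ensembl genes; coordinates are GENCODE M21 on GRCm38. Levels are TPM, mean and SD of 2 livers. Littermate ratios used log2(TPM + 1); count ratios used library totals with exact 95% binomial intervals. Where none was counted, 3 counts (0.0712 and 0.0724 CPM) is the limit. TMM factors came from edgeR 4.0.16 (R 4.3.3) on rounded counts; the rest used Python 3.11.15, pandas 2.3.3, numpy 2.4.6, scipy 1.17.1 and matplotlib 3.10.9. A separate version of the 2-fold rule was run on simulated gene counts that held counting error only. It used limits from counting error in place of the authors' credible bounds and held no assignment of reads to transcripts. The calls printed here were therefore not checked by it. Named were all members; loop genes at a mean of 10 TPM or more, undetected or 2-fold apart; output and induced genes 2-fold apart; and the 5 genes with intervals apart nearest to Per1. Nr1d1, Nr1d2, Nfil3 and Hlf were named as genes of the 22 pairs. Members and lists were chosen with earlier results of these data known. Alternatives covered pseudocount, estimate, scaling, thresholds, filters and single livers.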

Additional observations from a re-analysis of the deposited data

How the results depend on the processing

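At a threshold of 5 TPM in each liver 4 members were detected in place of 9. The single member that was 2-fold apart, Per1, was lost (leaving 0) when means under 5 TPM were left out, since the Per1 mean was 4.79 TPM, and with transcripts of 500 nt or more, an alternative chosen after seeing the data, where its log2 ratio was -0.89. It was kept under the other 7 alternatives. Among loop genes the count rose from 0 to 1 (Nr1d1) with a pseudocount of 0.1. Over all genes the 80 calls became 36 at a mean TPM of 5 or more and 159 without the interval criterion. Pairs beyond the spread numbered 12 to 14, and none of the 12 main pairs changed sign in its mean under the alternative scales. Leaving out 1 liver could not change these signs, since the rule required the same sign in both livers. Leaving out either liver left 9 members detected, and could not give fewer, since detection required 1 TPM in each liver. TMM scaling moved the median log2 ratio of the tested genes from -0.05 to 0.0044. No paired analysis was possible because the 2 livers form 1 group. Depth limits Npas2, Rorb and the short transcripts, which rest on few counts.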
